A study of Mus musculus with 6 samples.

Results

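MHC class I and immunoproteasome transcripts were compared between cultured fetal liver macrophages of wild-type mice and of Ahrr-deficient mice; Ahrr encodes the repressor of the aryl hydrocarbon receptor (AhR). The 10 genes were chosen by name and matched on their symbol: H2-K1, H2-D1, B2m, Tap1, Tap2, Tapbp, Psmb8, Psmb9, Psmb10 and Nlrc5. All 10 were among the 16111 genes with an identifier in the deposited table, and all 10 had enough reads to be tested. Both groups were labelled C57BL/6 RCC, came from fetuses at stage E13.5, and were kept for 5 weeks in serum-containing medium with 2% GM-CSF, a macrophage growth factor, before the non-adherent cells were collected. The wild-type group held 3 libraries and the Ahrr-deficient group, labelled AhRR-/-, held 3 libraries, each labelled with a mouse number. The labels give neither the design of the Ahrr allele nor the sex of the fetuses, and they do not say whether the fetuses of a genotype shared a litter.

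MHC class I molecules display peptides from inside the cell to cytotoxic T cells. The proteasome cuts proteins into peptides, and immune cells can replace its catalytic subunits by the immunoproteasome subunits encoded by Psmb8, Psmb9 and Psmb10. The Tap1-Tap2 transporter carries the peptides into the endoplasmic reticulum, where tapasin, the product of Tapbp, holds an empty heavy chain and B2m next to the transporter until a peptide binds. NLRC5 is a transactivator that works with RFX, CREB/ATF and NF-Y factors at class I promoters, and interferon raises the whole pathway, in part through IRF1.

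Of the 10 genes, 3 fell and 1 rose in Ahrr-deficient cells. Tapbp, Psmb9 and Tap2 fell, Nlrc5 rose, and H2-K1, H2-D1, B2m, Tap1, Psmb8 and Psmb10 did not pass the threshold (edgeR quasi-likelihood test, adjusted p under 0.05). Over all 11408 tested genes 19.6% passed, 9.62% as higher and 9.95% as lower. The median log2 fold change was -0.15 over the 10 genes and 0.0076 over all tested genes. It was negative in 9 of the 10, with or without a call, and in 5597 of the 11408 tested genes. In 4 of the 10 (H2-D1, Tap2, Tapbp and Psmb9) every Ahrr-deficient library lay below every wild-type one, against 19.6% of tested genes, and in none above (19.2%); the groups lay apart in either direction in 38.8% of tested genes. Without TMM factors, which correct library totals for composition, it was 3 of the 10, against 36.6% in either direction. In bulk RNA a lower level per cell and fewer cells of a type cannot be told apart. When 1 library was left out the count was 0 to 1 (0 without wild-type replicate 1 or 3 or Ahrr-deficient replicate 2, and 1 without wild-type replicate 2 or Ahrr-deficient replicate 3), except that the same 4 genes were called without Ahrr-deficient replicate 1.

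Library totals ranged from 3556106 to 41668336 counts. The shallowest was Ahrr-deficient replicate 1 and the deepest Ahrr-deficient replicate 2. Wild-type replicate 2 stood apart within its group, with a chi-square per degree of freedom of 175 and 70.0 against the other wild-type libraries, which gave 5.79 between them. Without wild-type replicate 2 and Ahrr-deficient replicate 1 together, a choice made after seeing the data, the 4 genes called were Tapbp, Psmb9, Tap2 and Nlrc5 again. The same 4 were called without Ahrr-deficient replicate 1 alone, and only Psmb9 without wild-type replicate 2 alone. Ahrr itself had 4.60, 4.74 and 5.21 CPM (counts scaled to a common library total) in wild-type libraries against 2.23, 2.47 and 1.18 CPM in Ahrr-deficient libraries (log2 fold change -1.21, SE 0.26, edgeR adjusted p 0.0151), so its reads were fewer but present. Its call was lost without wild-type replicate 1 or 3 (edgeR adjusted p of up to 0.0631). All CPM values here are scaled by the TMM factor of the library. The edgeR p-values set the difference between the groups against the spread within these 3 and 3 libraries, estimated with help from all tested genes.

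The promoter sequences of the pathway are shown because the genes share a short set of elements. RefSeq windows on GRCm38.p6, from 250 bases before to 50 after the transcript start, were found for 8 of the 10 genes, not for Tap2 and Nlrc5. Where a gene has several listed starts, the window of the first is shown, and a motif at any of them is counted. Short capitals mark CCAAT or its complement ATTGG (the NF-Y element), TGACG or CGTCA (the core of a CREB/ATF element) and, in B2m, a pair of GAAA parted by 2 bases (the core of the interferon-stimulated response element). Long capitals in H2-D1 and H2-K1 mark runs of at least 20 bases that both windows hold.
H2-D1, chr17:35262844-35263143, plus strand: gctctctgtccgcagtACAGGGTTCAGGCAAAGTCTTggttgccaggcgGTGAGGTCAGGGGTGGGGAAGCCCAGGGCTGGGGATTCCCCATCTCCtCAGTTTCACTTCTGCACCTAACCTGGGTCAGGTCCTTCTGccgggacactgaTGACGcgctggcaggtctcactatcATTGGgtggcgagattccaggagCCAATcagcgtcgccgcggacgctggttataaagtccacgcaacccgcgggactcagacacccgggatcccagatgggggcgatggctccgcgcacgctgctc
H2-K1, chr17:34000298-34000597, minus strand: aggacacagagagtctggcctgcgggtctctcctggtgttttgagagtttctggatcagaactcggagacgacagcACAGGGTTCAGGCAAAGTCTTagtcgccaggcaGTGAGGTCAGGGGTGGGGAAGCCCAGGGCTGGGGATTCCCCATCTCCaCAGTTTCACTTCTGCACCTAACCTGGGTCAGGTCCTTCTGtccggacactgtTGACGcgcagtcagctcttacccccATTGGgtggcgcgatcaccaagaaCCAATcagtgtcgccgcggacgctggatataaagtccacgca
B2m, chr2:122147437-122147736, plus strand: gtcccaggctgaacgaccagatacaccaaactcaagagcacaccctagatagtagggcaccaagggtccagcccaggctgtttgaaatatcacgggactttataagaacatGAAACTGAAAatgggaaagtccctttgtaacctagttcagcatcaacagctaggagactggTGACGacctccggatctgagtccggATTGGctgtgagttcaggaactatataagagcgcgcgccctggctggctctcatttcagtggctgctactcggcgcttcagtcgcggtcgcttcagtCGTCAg
Tap1, chr17:34187306-34187605, plus strand: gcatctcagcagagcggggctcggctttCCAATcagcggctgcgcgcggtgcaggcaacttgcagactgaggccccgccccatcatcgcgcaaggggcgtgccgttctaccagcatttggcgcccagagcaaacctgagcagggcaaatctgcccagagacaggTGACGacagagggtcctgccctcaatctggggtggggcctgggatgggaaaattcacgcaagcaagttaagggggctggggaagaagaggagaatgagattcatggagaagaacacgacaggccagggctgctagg
Tapbp, chr17:33919228-33919527, plus strand: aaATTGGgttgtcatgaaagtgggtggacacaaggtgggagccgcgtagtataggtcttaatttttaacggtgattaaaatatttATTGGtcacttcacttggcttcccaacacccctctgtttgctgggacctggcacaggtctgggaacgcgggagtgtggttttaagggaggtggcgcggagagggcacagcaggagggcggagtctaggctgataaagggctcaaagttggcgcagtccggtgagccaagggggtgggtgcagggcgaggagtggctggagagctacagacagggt
H2-D1 and H2-K1 share runs of 21, 47 and 40 bases, which were looked for after the sequences were seen. The run of 47 holds the NF-kB palindrome of the class I enhancer near its end, and the run of 40 holds near its start the interferon consensus sequence of class I genes. After it both hold a CREB/ATF core and a pair of NF-Y elements in the same order. At the best shift without gaps, 60 bases, 176 of 240 bases (73.3%) were identical. B2m has the core of the interferon element, 2 CREB/ATF cores and ATTGG. Tap1 and Psmb9 are transcribed away from each other, and 275 of the 300 bases of their windows are the same DNA. Tapbp holds NF-Y elements alone among those marked.

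Among the 8 genes with a window, CCAAT was found on either strand in 6, against 37.4% of 32851 promoter windows of that length. TGACG was found in 5, against 20.8%, and the pair of GAAA in 1 (B2m), against 3.44%. TTCNNNGAA, the core of the interferon-gamma activated element, was found in Psmb8 alone, against 8.30%. The AhR core GCGTG was found in 6, all but B2m and Tapbp, against 32.4%. GCAACAG, the core of the RFX element, and GGGGA followed after 1 base by TTCC, an NF-kB pattern, were found in none of the 8, against 5.48% and 0.35%. In the NF-kB palindrome of H2-D1 and H2-K1, TTCC follows GGGGA directly, so that pattern could not match it. Tap1 and Psmb9 count separately in these numbers although they share their window, and a match of letters is not evidence of a bound factor.

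The heavy chains and their shared light chain were the most abundant members. H2-D1 (ENSMUSG00000073411.11, chromosome 17, 35262730 to 35267499, GRCm38) encodes a classical heavy chain. It had 1346, 1238 and 1215 CPM in wild-type replicates 1, 2 and 3 and 1029, 996 and 1081 CPM in the Ahrr-deficient ones. Every Ahrr-deficient library lay below every wild-type library. The means were 1266 ± 69.8 and 1035 ± 42.6 CPM (SD, n = 3). The log2 fold change of -0.29 (SE 0.11, 95% interval -0.53 to -0.05) did not pass the threshold (edgeR adjusted p 0.0834). DESeq2 and limma-voom called it, with an adjusted p of 0.0284 and 0.0376.

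H2-K1 (ENSMUSG00000061232.15, chromosome 17, 33996017 to 34000347), the other classical heavy chain of this strain background, had 577, 543 and 494 CPM in wild-type libraries against 475, 548 and 561 CPM in Ahrr-deficient libraries. The groups overlapped over most of their range. Its log2 fold change was -0.03 (SE 0.11, 95% interval -0.28 to 0.23, edgeR adjusted p 0.888). B2m (ENSMUSG00000060802.8, chromosome 2, 122147686 to 122153083) encodes the light chain that all class I heavy chains of this kind need. It had 1663, 1620 and 1588 CPM in wild-type libraries against 1629, 1493 and 1485 CPM in Ahrr-deficient libraries. Ahrr-deficient replicate 1 lay within the wild-type range and the other two below it. The log2 fold change was -0.08 (SE 0.11, 95% interval -0.32 to 0.16, edgeR adjusted p 0.623).

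The H2-D1 to H2-K1 ratio can be taken within a library, where no scaling between libraries enters. The log2 ratio of counts was 1.22, 1.19 and 1.30 in wild-type libraries against 1.12, 0.86 and 0.95 in Ahrr-deficient libraries. The groups did not overlap, with means of 1.24 ± 0.06 and 0.98 ± 0.13 (SD, n = 3). Of the distinct windows of 75 bases, the read length, 3.10% in H2-K1 transcripts and 5.56% in H2-D1 transcripts also occur in transcripts of other genes, most often H2-Q10 and H2-Q1 respectively. Reads from those stretches cannot be assigned with certainty.

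**Figure D1:**
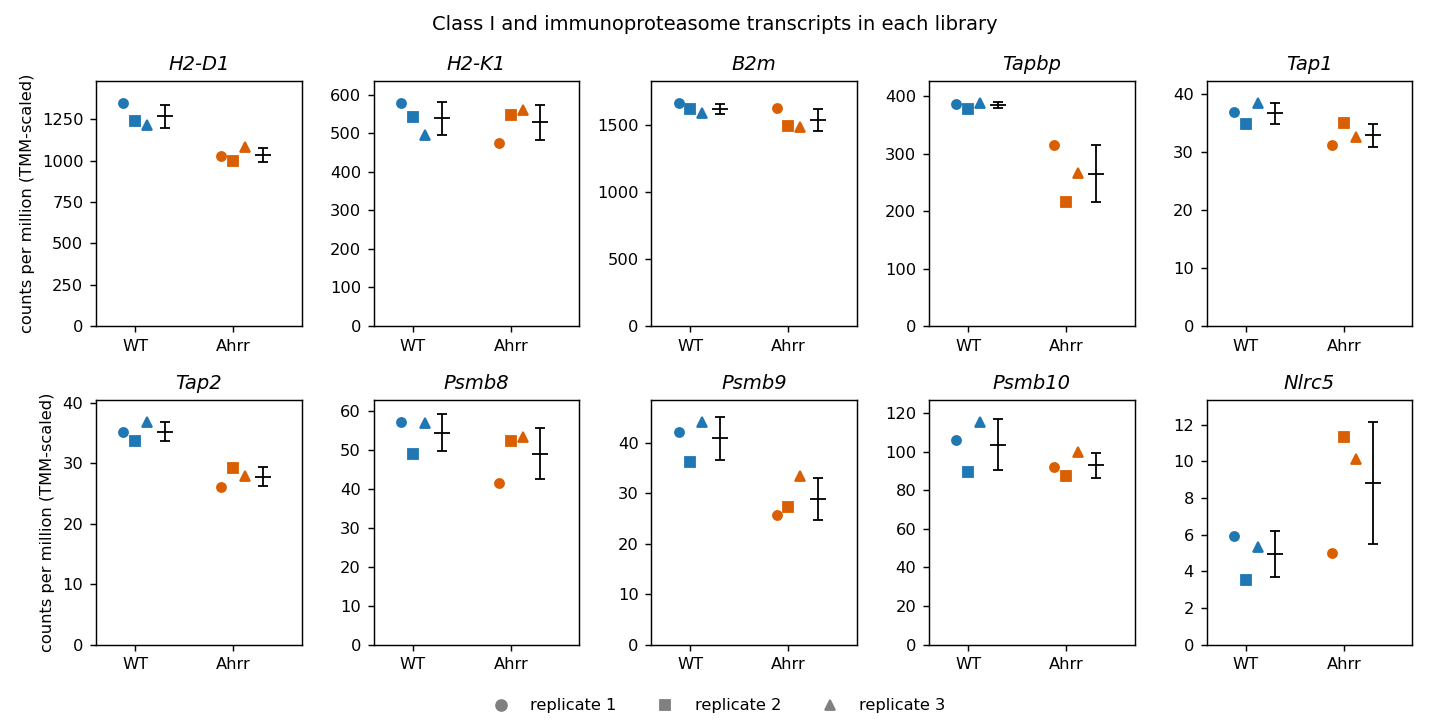
TMM-scaled CPM (y axis, from 0) of the 10 genes in the 3 wild-type (WT) and 3 Ahrr-deficient (Ahrr) libraries. Symbols are replicates, and the black bar is the mean with its SD. Tapbp, Tap2, Psmb9 and H2-D1 had all Ahrr-deficient libraries below all wild-type ones, and Nlrc5 was high in Ahrr-deficient replicates 2 and 3 only.

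Of the 3 peptide loading genes, Tapbp and Tap2 fell and Tap1 did not pass the threshold. Tapbp (ENSMUSG00000024308.14, chromosome 17, 33915899 to 33929292) encodes tapasin, which edits the bound peptide. It had 387, 379 and 388 CPM in wild-type libraries against 315, 215 and 266 CPM in Ahrr-deficient libraries. The wild-type libraries lay close together, and the Ahrr-deficient ones lay below them and apart from each other. Tapbp fell from 385 ± 5.20 to 266 ± 49.9 CPM (SD, n = 3), by 0.54 on the log2 scale (SE 0.13, edgeR adjusted p 0.0239). Its adjusted p stayed under the threshold in 10 of 15 alternative fits. It was 0.0875, 0.0668 and 0.067 without wild-type replicate 1, 2 or 3, 0.0553 and 0.0717 without Ahrr-deficient replicate 2 or 3, and 0.00197 without Ahrr-deficient replicate 1. The exons of Gm19412 overlap those of Tapbp on the opposite strand over 904 bases, and whether counting used the strand is not given in the sources used here.

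Tap2 (ENSMUSG00000024339.12, chromosome 17, 34203527 to 34216321) encodes 1 of the pair of chains of the peptide transporter. It had 35.1, 33.7 and 36.9 CPM in wild-type libraries against 26.2, 29.3 and 28.0 CPM in Ahrr-deficient libraries, with no overlap. Tap2 fell from 35.3 ± 1.60 to 27.8 ± 1.55 CPM (SD, n = 3), by 0.33 on the log2 scale (SE 0.09, edgeR adjusted p 0.0385). With DESeq2 its adjusted p was 0.104, with thinning 0.111 and with no filter 0.0607, and it was 0.0653 to 0.139 when any library except Ahrr-deficient replicate 1 was left out (0.139, 0.0784 and 0.111 without wild-type replicate 1, 2 or 3, and 0.0653 and 0.0914 without Ahrr-deficient replicate 2 or 3). Antisense exons of Gm15821 and Gm20496 overlap Tap2. Tap1 (ENSMUSG00000037321.17, chromosome 17, 34187553 to 34197225), the partner chain, had 36.8, 34.8 and 38.4 CPM in wild-type libraries against 31.2, 35.1 and 32.5 CPM in Ahrr-deficient libraries. Only Ahrr-deficient replicate 2 reached the wild-type range. The log2 fold change of Tap1 was -0.14 (SE 0.09, 95% interval -0.36 to 0.07, edgeR adjusted p 0.298), and the difference between Tap1 and Tap2 was not tested.

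Of the 3 immunoproteasome subunit genes, Psmb9 fell, and Psmb8 and Psmb10 did not pass the threshold. Psmb9 (ENSMUSG00000096727.2, chromosome 17, 34181987 to 34187764), whose product takes the place of the constitutive subunit Psmb6, had 42.3, 36.2 and 44.2 CPM in wild-type libraries against 25.6, 27.2 and 33.5 CPM in Ahrr-deficient libraries. All Ahrr-deficient libraries lay below the wild-type ones. Psmb9 fell from 40.9 ± 4.18 to 28.8 ± 4.17 CPM (SD, n = 3), by 0.50 on the log2 scale (SE 0.13, edgeR adjusted p 0.0253). Without TMM factors the groups overlapped, with 32.7 CPM in wild-type replicate 2 and 34.5 CPM in Ahrr-deficient replicate 3. The call was lost without wild-type replicate 1 or 3 (edgeR adjusted p 0.112 and 0.0824), without Ahrr-deficient replicate 2 (0.0949), and with all libraries thinned to the smallest total (0.0551).

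Psmb8 (ENSMUSG00000024338.14, chromosome 17, 34197721 to 34201454), the counterpart of Psmb5, had 57.3, 49.0 and 57.1 CPM in wild-type libraries against 41.5, 52.3 and 53.3 CPM in Ahrr-deficient libraries. Its lowest value was that of Ahrr-deficient replicate 1, and the other values of both groups overlapped. The log2 fold change was -0.14 (SE 0.11, 95% interval -0.40 to 0.12, edgeR adjusted p 0.425). Psmb10 (ENSMUSG00000031897.9, chromosome 8, 105935735 to 105938444), the counterpart of Psmb7, had 106, 89.6 and 116 CPM in wild-type libraries against 91.9, 87.2 and 100.0 CPM in Ahrr-deficient libraries. The groups overlapped through wild-type replicate 2. The log2 fold change was -0.16 (SE 0.11, 95% interval -0.40 to 0.08, edgeR adjusted p 0.307).

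Psmb9 and Tap1 share their promoter region, so their ratio was taken within each library. The log2 ratio of Psmb9 to Tap1 counts was 0.20, 0.06 and 0.20 in wild-type libraries against -0.28, -0.37 and 0.04 in Ahrr-deficient libraries. The groups did not overlap, although wild-type replicate 2 and Ahrr-deficient replicate 3 lay next to each other. The means were 0.15 ± 0.08 and -0.20 ± 0.22 (SD, n = 3). This ratio was not tested either. With TMM factors Psmb9 itself lay apart, as did 38.8% of single tested genes, and Tap1 did not. Exons of the 2 genes overlap on opposite strands over 212 bases, and 138 windows of 75 bases are common to both.

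The balance between each immunoproteasome subunit and its constitutive counterpart was measured as a share of their length-scaled counts. Psmb10 made up 82.7%, 80.7% and 84.0% of the Psmb10 and Psmb7 pair in wild-type libraries against 78.2%, 75.6% and 79.9% in Ahrr-deficient libraries. The groups did not overlap, and the Ahrr-deficient mean differed by -4.61 points, 77.9% ± 2.16 against 82.5% ± 1.69 (SD, n = 3, exact two-sided permutation p 0.1, adjusted p 0.3 over 3 pairs). With 3 libraries against 3 no exact test can go below 0.1. Psmb9 made up 12.5%, 11.3% and 15.6% of its pair with Psmb6 in wild-type libraries against 10.7%, 8.69% and 11.5% in Ahrr-deficient libraries (exact permutation p 0.2, adjusted p 0.3). Psmb8 made up 36.7%, 30.3% and 36.7% of its pair with Psmb5 in wild-type libraries against 37.9%, 27.0% and 31.7% in Ahrr-deficient libraries (exact permutation p 0.7). The level of a share depends on the exon length used. Psmb8 has 3381 bases of merged exons and 1907 in its longest transcript, while Psmb5 has 899 by either. Shares with the longest transcript were not computed. Without length scaling the group differences were -2.56 points for Psmb8, -4.51 for Psmb9 and -6.42 for Psmb10, in the same direction. Of the 3 constitutive genes 0 passed by edgeR or DESeq2, 1 by limma-voom, and 1 had an unadjusted p under 0.05 in edgeR. Over all tested genes 19.6% passed by edgeR and 35.8% had an unadjusted p under 0.05. The log2 fold changes were 0.28 for Psmb7, 0.15 for Psmb5 and -0.10 for Psmb6, with edgeR adjusted p of 0.0532, 0.631 and 0.599. Without Ahrr-deficient replicate 1 Psmb7 and Psmb5 passed (edgeR adjusted p 0.0333 and 0.0482). The CPM values of Psmb7 were higher in all Ahrr-deficient libraries, as in 19.2% of tested genes, while those of Psmb10 overlapped, and the share of Psmb10 depends on both. Psmb5 shares 36.8% of its windows of 75 bases with other genes, mostly Gm3375, so its level is uncertain. Psmb7 shares 7.83% of its windows, all with Nek6, whose exons overlap it on the opposite strand over 405 bases.

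**Figure D2:**
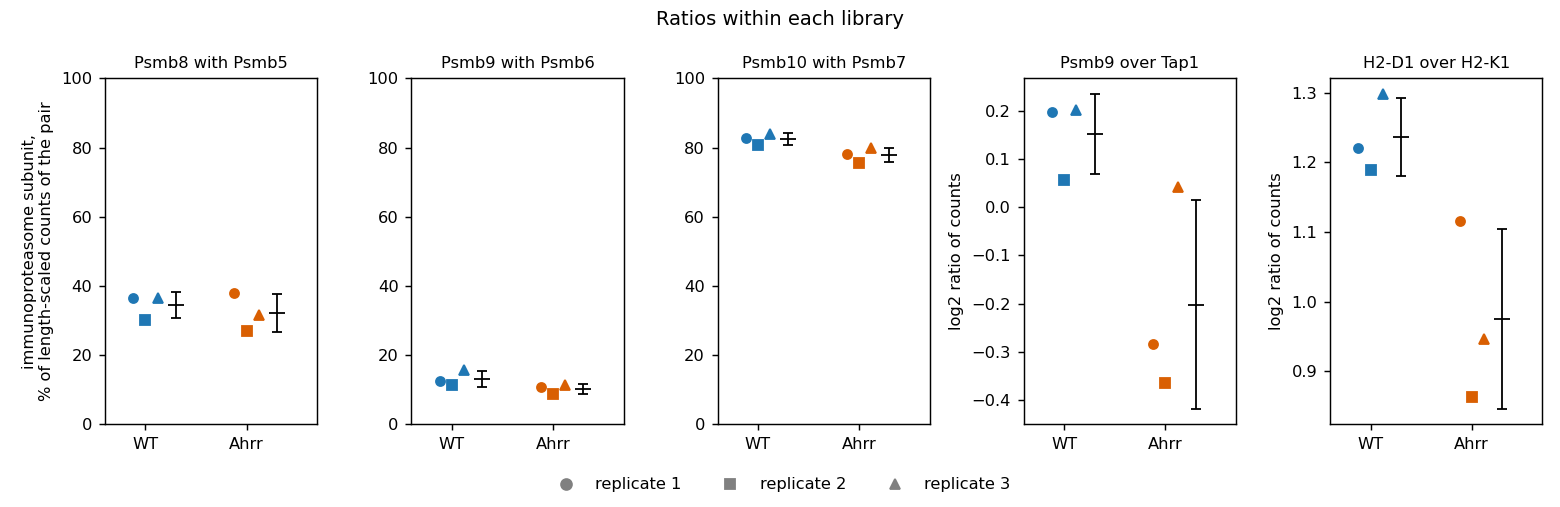
Ratios taken within each library, with replicates as symbols and the mean with SD as a black bar. The first 3 panels show the immunoproteasome subunit as a percentage of the length-scaled counts of its catalytic pair, and the other 2 the log2 ratio of raw counts of Psmb9 to Tap1 and of H2-D1 to H2-K1 (axes not from 0). The groups do not overlap for Psmb10 with Psmb7 and for both log2 ratios. The log2 ratios were not tested.

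Nlrc5 (ENSMUSG00000074151.13, chromosome 8, 94434356 to 94527272), the class I transactivator, was the only member that rose. It had 130, 20 and 39 reads in wild-type libraries against 18, 490 and 103 reads in Ahrr-deficient libraries, or 5.92, 3.51 and 5.35 against 5.01, 11.3 and 10.12 CPM. Ahrr-deficient replicates 2 and 3 lay above all wild-type libraries, while Ahrr-deficient replicate 1 lay within the wild-type range. Nlrc5 rose from 4.93 ± 1.26 to 8.82 ± 3.35 CPM (SD, n = 3), by 0.90 on the log2 scale (SE 0.27, 95% interval 0.29 to 1.5, edgeR adjusted p 0.0457). The call was held in 5 of 15 alternative fits. Its adjusted p was 0.00413 without Ahrr-deficient replicate 1, 0.212 and 0.137 without Ahrr-deficient replicate 2 or 3, and 0.104, 0.127 and 0.106 without wild-type replicate 1, 2 or 3. It was 0.131 with all libraries thinned to the smallest total.

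The library pattern of Nlrc5 was looked up among all other tested genes. The 5 with the highest Pearson correlation of log2 CPM over the 6 libraries were Mecr, Tmem63a, Srp19, Msrb1 and Psme2, with r from 0.991 to 0.995. These were picked as the extremes of 11408 genes over 6 points that differ in depth, so r is a description only. Psme2, which encodes a subunit of the interferon-inducible PA28 proteasome activator, had 94.3, 85.3 and 95.4 CPM in wild-type libraries against 93.9, 114 and 113 CPM in Ahrr-deficient libraries. Its order over the libraries was close to that of Nlrc5, with replicates 2 and 3 of the Ahrr-deficient group highest and wild-type replicate 2 lowest. Psme2 did not pass the threshold (log2 fold change 0.23, SE 0.10, edgeR adjusted p 0.118), except without Ahrr-deficient replicate 1 (0.0115) or without it and wild-type replicate 2 (0.0323), and 22.9% of its windows of 75 bases also occur in Psme2b.

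Levels between genes were compared as CPM per kilobase of merged exons. In both groups the order was B2m, H2-D1, H2-K1, Tapbp, Psmb10, Psmb8, Psmb9, Tap2, Tap1 and Nlrc5. B2m had 1888 ± 43.4 CPM per kilobase in wild-type (SD, n = 3), H2-D1 491 ± 27.1 and H2-K1 183 ± 14.3. Tapbp had 106 ± 1.43, against 9.32 ± 0.42 for Tap2 and 6.70 ± 0.33 for Tap1. Psmb10 had 60.8 ± 7.71, Psmb8 16.1 ± 1.4 and Psmb9 11.2 ± 1.14, and Nlrc5 was lowest with 0.58 ± 0.15 CPM per kilobase. Neighbours in this order were apart in every library of a group, except Psmb9 and Tap2, which overlapped in the Ahrr-deficient group. The same order was obtained with the length of the longest transcript.

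Other class I heavy chain genes moved in both directions. Of 25 listed genes 15 were in the table and 13 were tested, of which 5 rose and 3 fell (61.5%, against 19.6% of all tested genes). H2-Q5 and H2-Q7 were among the 13 only through their Ahrr-deficient libraries, since no wild-type library reached the minimum of 1.17 CPM before TMM scaling, so they had to differ. Of the 11 genes that reached it in both groups 3 rose and 3 fell (54.5%), and their median log2 fold change was 0.11. Among the genes of the Q region next to H2-D1, H2-Q5 had 1.00, 0.527 and 0.96 CPM in wild-type libraries against 1.39, 3.6 and 2.65 CPM in Ahrr-deficient libraries (log2 fold change 1.71, edgeR adjusted p 0.0135 when no gene was filtered out). H2-Q7 had 1.00, 0.527 and 0.549 CPM in wild-type libraries against 1.67, 2.33 and 2.46 CPM in Ahrr-deficient libraries (log2 fold change 1.51, edgeR adjusted p 0.0151 when no gene was filtered out). H2-Q4, which passed the filter in both groups, rose. It had 13.3, 10.4 and 11.8 CPM in wild-type libraries against 15.9, 23.1 and 18.0 CPM in Ahrr-deficient libraries (log2 fold change 0.71, SE 0.16, edgeR adjusted p 0.018). The groups of H2-Q4 did not overlap, which held for 38.8% of all tested genes. In H2-Q5 and H2-Q7 the filter had fixed this outcome. Replicate 1 was the lowest of the Ahrr-deficient group in all 3 genes.

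The Q genes are near-identical in parts, and 21.2%, 17.0% and 20.7% of the windows of 75 bases of H2-Q5, H2-Q7 and H2-Q4 occur in other genes, so their values are uncertain. H2-Q5 and H2-Q7 had 3 to 7 reads in wild-type replicates 2 and 3 and in Ahrr-deficient replicate 1. With the filter, none of the 3 passed without Ahrr-deficient replicate 2 (edgeR adjusted p 0.087, 0.0682 and 0.085). H2-Q5 also missed the threshold without wild-type replicate 1 (0.0632), and H2-Q4 without wild-type replicate 1, 2 or 3 (0.0501, 0.0674 and 0.063).

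H2-T23, the gene of the non-classical chain Qa-1 that presents leader peptides of other class I chains, fell. It had 230, 231 and 213 CPM in wild-type libraries against 170, 156 and 171 CPM in Ahrr-deficient libraries, which was narrow within and well apart between groups. Its fold change was -0.44 on the log2 scale (SE 0.08, edgeR adjusted p 0.00827). The adjusted p was 0.055 without wild-type replicate 1, the only loss in 15 alternative fits. The remaining calls of the list, named after their values were seen to complete the count, were H2-M2 and Cd1d1 as higher and Fcgrt and Hfe as lower. Without wild-type replicate 1 none of the 4 passed, and in all the fits that left out 1 library their adjusted p reached 0.0702 (Fcgrt) to 0.19 (H2-M2). H2-M2 had 15.04 and 12.1 CPM in Ahrr-deficient replicates 1 and 2 and 4.32 CPM, within the wild-type range, in replicate 3.

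**Figure D3:**
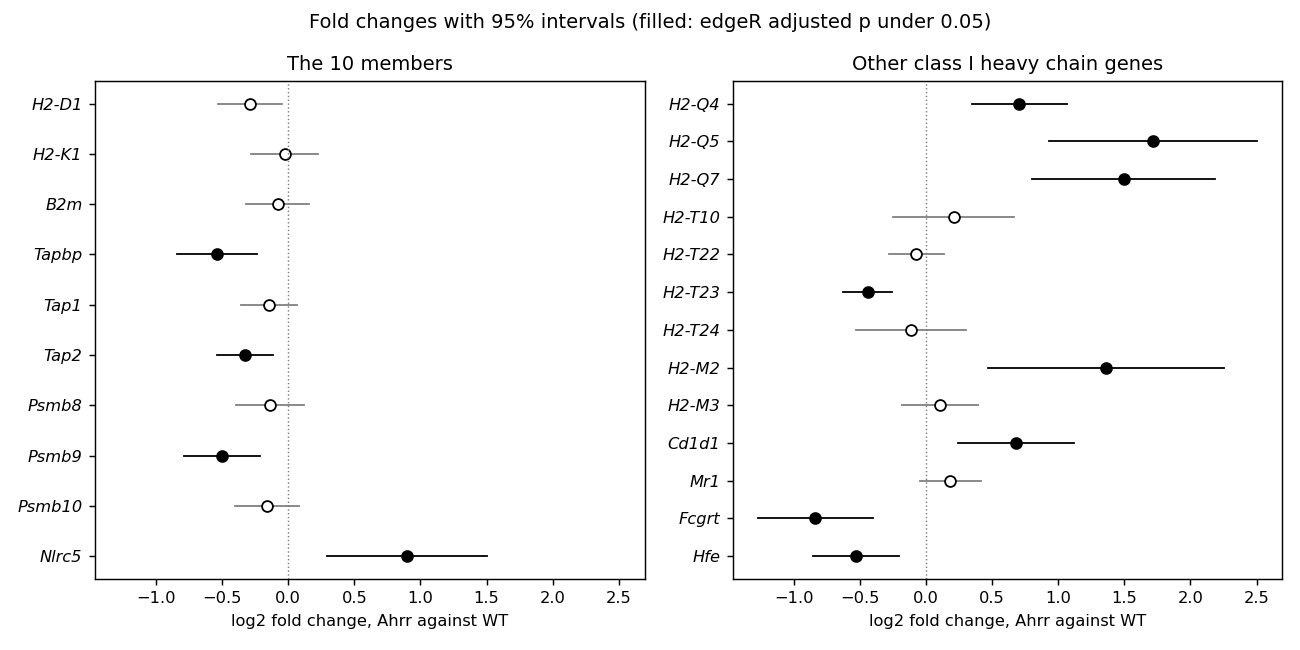
Log2 fold changes of Ahrr-deficient against wild-type cells (x axis) with 95% intervals, for the 10 members (left) and the 13 tested other class I heavy chain genes (right). Filled points have an edgeR adjusted p under 0.05. Nlrc5 is the only filled point to the right of 0 among the members, whereas 5 of the other heavy chain genes lie there, of which H2-Q5 and H2-Q7 were tested only through their Ahrr-deficient libraries.

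In the machinery around the members, edgeR calls came only from the cytosolic peptidase list, where 19.6% of all tested genes passed. Of 11 genes for peptide loading, trimming and chaperones, 0 passed by edgeR, DESeq2 or limma-voom, and 1 had an unadjusted p under 0.05 in edgeR, against 35.8% of all tested genes. Calr, which encodes the chaperone calreticulin, differed by -0.28 on the log2 scale (edgeR adjusted p 0.204), and the trimming enzyme gene Erap1 by -0.11 (edgeR adjusted p 0.323). Calr passed when Ahrr-deficient replicate 1 was left out (edgeR adjusted p 0.0264). Of 11 genes for proteasome activators and assembly, 0 passed by the same 3 tools. An unadjusted p under 0.05 in edgeR was reached by 4 of the 11, close to the 35.8% of all tested genes. Psme1, the partner of Psme2, differed by -0.05 on the log2 scale (edgeR adjusted p 0.624). Of 7 cytosolic peptidase genes 2 rose and 0 fell (28.6%, against 19.6% of all tested genes in either direction and 9.62% higher). Nln rose by 0.45 (edgeR adjusted p 0.0101) and the interferon-inducible aminopeptidase gene Lap3 by 0.46 (edgeR adjusted p 0.0441) on the log2 scale. Lap3 lost its call in all fits that left out 1 library except that without Ahrr-deficient replicate 1, with an adjusted p of up to 0.152. Nln lost it only without wild-type replicate 1 (0.0567).

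Among 19 tested regulators of class I transcription, 4 fell and 0 rose (21.1%, against 19.6% of all tested genes). Irf7, an interferon-induced transcription factor gene, had 12.1, 11.6 and 10.98 CPM in wild-type libraries against 7.52, 4.22 and 3.24 CPM in Ahrr-deficient libraries (log2 fold change -1.39, SE 0.23, edgeR adjusted p 0.00631). Irf8, a factor of the macrophage lineage, had 178, 172 and 171 CPM in wild-type libraries against 136, 124 and 127 CPM in Ahrr-deficient libraries (log2 fold change -0.44, SE 0.07, edgeR adjusted p 0.00631). Both kept their call in all 15 alternative fits. Rfx5, which encodes a subunit of the RFX complex at class I and class II promoters, had 23.4, 24.6 and 28.3 CPM in wild-type libraries against 18.4, 14.1 and 17.3 CPM in Ahrr-deficient libraries (log2 fold change -0.65, SE 0.13, edgeR adjusted p 0.012). Rfx5 missed the threshold without Ahrr-deficient replicate 2 (edgeR adjusted p 0.0505) and with all libraries thinned to the smallest total (log2 fold change -0.41, edgeR adjusted p 0.129), and B230398E01Rik overlaps it on the opposite strand. Rela, an NF-kB subunit gene, fell by 0.28 (edgeR adjusted p 0.0424) on the log2 scale and held its call in 1 of the 6 fits that left out a library, that without Ahrr-deficient replicate 1.

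Irf1, through which interferon-gamma acts on these promoters, did not pass, with a log2 fold change of -0.23 (SE 0.12) and adjusted p 0.201 in edgeR. Ciita, the class II relative of Nlrc5, was not among the genes of the table. Of 9 tested interferon receptor and signalling genes 2 fell and 1 rose (33.3%, against 19.6% of all tested genes). Ifngr1, a chain of the interferon-gamma receptor, had 254, 245 and 261 CPM in wild-type libraries against 209, 149 and 178 CPM in Ahrr-deficient libraries (log2 fold change -0.51, SE 0.12, edgeR adjusted p 0.02). Ifnar2 fell by 0.32 (edgeR adjusted p 0.0375) on the log2 scale, and Ifnar1 differed by -0.15 (edgeR adjusted p 0.218). Ptpn2, which encodes a phosphatase that limits cytokine receptor signalling, had 27.4, 26.3 and 23.2 CPM in wild-type libraries against 36.5, 53.3 and 44.7 CPM in Ahrr-deficient libraries (log2 fold change 0.83, SE 0.14, edgeR adjusted p 0.00637). Ptpn2 kept its call in all 15 alternative fits, whereas Ifngr1 lost it without Ahrr-deficient replicate 3 (0.0631) or wild-type replicate 1, 2 or 3 (0.0797, 0.0579 and 0.0641). Ifnar2 kept it in 1 of the 6 fits that left out a library, that without Ahrr-deficient replicate 1.

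**Figure D4:**
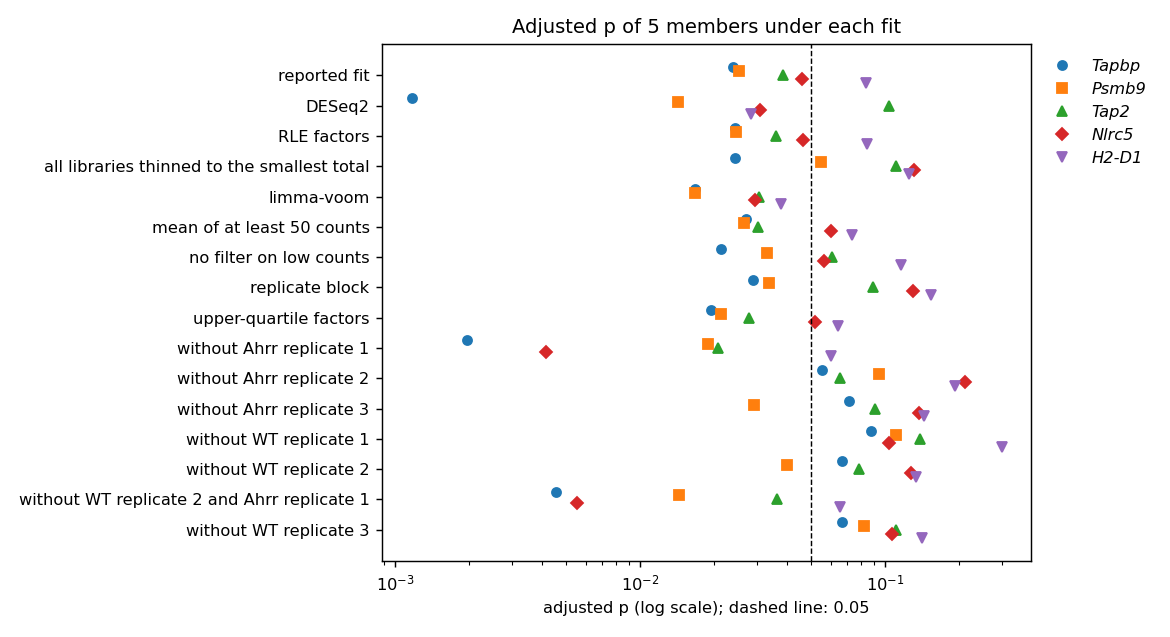
Adjusted p (x axis, log scale) of the 4 called members and of H2-D1 in the reported edgeR fit and 15 alternatives (rows); the dashed line is 0.05. Points of Tapbp and Psmb9 lie mostly left of the line, and leaving out Ahrr-deficient replicate 2, wild-type replicate 1 or wild-type replicate 3 puts all 5 genes to the right of it.

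The cells carried the markers of macrophages. All 10 listed macrophage genes were tested, with a summed level of 24477 to 26883 CPM in wild-type libraries against 14823 to 22648 CPM in Ahrr-deficient libraries, and 3 of them fell, Csf1r and Cd14 among them. The 8 markers of alveolar-like macrophages summed to 37655 to 40691 CPM in wild-type libraries against 34242 to 37217 CPM in Ahrr-deficient libraries, with 3 higher. Of 8 dendritic cell markers 4 were in the table, with 60.8 to 69.2 CPM in wild-type libraries against 76.0 to 95.8 CPM in Ahrr-deficient libraries. Most of this was Clec9a, with means of 56.1 and 79.2 CPM. Zbtb46 was lower (5.64 and 4.31 CPM) and Batf3 higher (2.84 and 4.92 CPM) on average without a call. Xcr1 was too low to be tested. Clec9a was the only one called, as higher, while Flt3, Ccr7, Cd209a and Siglech were not in the table. Their part in the class I results was not tested. The lists for granulocytes, mast cells, erythroid cells, hepatocytes, lymphocytes and stroma each summed to at most 2.63 CPM in any library, and no gene of the mast cell and lymphocyte lists was in the table.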

How the data were processed

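The authors deposited raw counts for 53465 features without identifiers and a normalized signal with identifiers for 16111 genes. The submitters' processing notes name CASAVA 1.8.2, fastp 0.20.0, STAR 2.7.10b, SAMtools 1.16.1, R 4.3.1, DESeq2 1.40.2 and the mm10 build. The counting program, annotation and use of strand are not given in the sources used here. The labels' protocols give TruSeq libraries from polyA RNA and single reads of 75 bases. Each deposited signal value times the library's size factor was a whole number of reads within 0.01 (100% of values), and the recovered rows were the raw rows with a total of at least 10 counts. Features without an identifier, 0.0232% to 0.0511% of the counts, were left out.

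Counts were tested with edgeR 4.0.16 in R 4.3.3 (TMM scaling, filterByExpr, genotype as the only term, quasi-likelihood test), two-sided, with Benjamini-Hochberg adjustment over 11408 genes and a threshold of 0.05. The biological coefficient of variation was 13.0%. SEs come from the fold change and the F statistic. An unadjusted p under 0.05 was reached by 4087 genes, 5 of them members. The share of each catalytic pair was tested by exact permutation over 20 assignments. The procedure was tested on simulated data. Coordinates and exon lengths are from GENCODE release M21 (GRCm38, the same assembly as mm10), where 16094 of 16111 identifiers matched. A count of 3 was taken as the floor, 0.0693 to 0.836 CPM. Reads carry no molecular identifiers, so floors cover counting error only.

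Groups and replicate numbers come from the sample titles. Members, lists and tests were chosen with earlier results of these data known. Every member is reported; from each list of pathway genes at most the 4 calls with the lowest adjusted p are named, with further genes named whatever their result and the 5 genes most like Nlrc5. A further 4 heavy chain genes were named after their values were seen. Some genes of the lists are not reported here. Alternatives were RLE and upper-quartile factors, DESeq2 1.42.0, no filter, a minimum mean count of 50, voom in limma 3.58.1, the replicate block, and each library left out. Thinning and leaving out 2 libraries together were added after seeing the data.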

Additional observations from a re-analysis of the deposited data

How the results depend on the processing

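Over 15 alternative fits the 10 members gave 150 values, of which 117 had the same direction and call, 28 lost a call, 2 gained one (H2-D1 with DESeq2 and limma-voom) and 3 changed sign. The sign changes were all in H2-K1, whose log2 fold change ran from -0.093 to 0.034 when 1 library was left out (0.034 without Ahrr-deficient replicate 1, 0.027 without wild-type replicate 1) and was 0.050 without wild-type replicate 2 and Ahrr-deficient replicate 1 together. Psmb5 changed sign to -0.14 with all libraries thinned to the smallest total and -0.096 without Ahrr-deficient replicate 2, and was 0.40 at most. Psmb6 changed to 0.027 without both libraries named, and was -0.20 without Ahrr-deficient replicate 2. When 1 library was left out, 694 to 3858 genes passed over the whole table, against 2232, with 0 to 4 members, against 4, and 5 to 29 genes of the surrounding lists, against 17. Of those 17, 3 (Irf7, Irf8 and Ptpn2) passed in all 6 of these fits. Fits with fewer libraries have fewer residual degrees of freedom. The fit without Ahrr-deficient replicate 1 gave the highest count, and that cause was not tested.

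With thinning 1214 genes, 1 member (Tapbp) and 10 list genes passed. Without a filter 2 members passed. With the replicate block 1390 genes, 2 members (Tapbp and Psmb9) and 11 list genes passed. Same-numbered libraries come from different mice. The correlations of their deviations from the group means were -0.17, 0.07 and 0.13, and not every library correlated best with its own number. With 3 libraries a group, these values cannot settle whether same-numbered libraries were handled together. The difference in the Psmb8 share of its pair was -2.35 points and lay between -5.19 and 0.24 points when 1 library was left out, turning sign without Ahrr-deficient replicate 2. The Psmb9 and Psmb10 shares were lower in the Ahrr-deficient group in every such setting (-3.79 to -1.63 and -5.61 to -3.47 points). Nlrc5, H2-Q5 and H2-Q7 had 20, 3 and 3 reads in wild-type replicate 2 and 18, 5 and 6 in Ahrr-deficient replicate 1, so their fold changes are limited by the depth of those libraries.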
